A study of Rattus norvegicus with 29 samples.

Results

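Plin2, Dgat2, Apoc2, Apoa4 and Abhd5, genes of lipid droplets and chylomicrons, were followed across the duodenal arrays of 29 operated rats. They are 5 of the 14557 genes with a row of their own in the array table, and each is measured by 1 row (probe sets 17808473, 17635148, 17630316, 17843860 and 17848586). They were picked by name with earlier results of these data known, among them the differences after both surgeries and the opposite signs of Abhd5. Their values after surgery are therefore given as a description, without p-values. All animals were male, wild-type Long-Evans rats of 8 to 10 weeks, with no transgene or deletion. The 5 groups were Roux-en-Y gastric bypass (RYGB, 6 rats), the sham operation for RYGB (5 rats), vertical sleeve gastrectomy (VSG, 6 rats), the sham operation for VSG (6 rats), and that VSG sham operation combined with paired feeding (6 rats). RYGB leads food past the duodenum, whereas after VSG, in which most of the stomach is cut away, food still passes through it. Per the labels' protocols, a liquid diet stood in for solid food on the day before, and the sham was pressure on the stomach along the line of the sleeve. They describe no RYGB operation and give no time between operation and tissue collection. The RYGB set has no pair-fed sham, so bypass and any change in food intake cannot be told apart there.

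Enterocytes of the upper small intestine take up fatty acids and monoglycerides from the lumen, rebuild them into triglyceride in the endoplasmic reticulum and export most of it as chylomicrons, lipoproteins built around apolipoprotein B. Triglyceride that is not exported at once is held in cytosolic lipid droplets and released again by lipases. Dgat2 encodes an acyltransferase that completes triglyceride synthesis. Plin2 encodes the perilipin that coats lipid droplets in most cells. Apoa4 and Apoc2 encode apolipoproteins carried by chylomicrons: apolipoprotein A-IV is made mainly by the intestine during fat absorption, and apolipoprotein C-II is the cofactor of lipoprotein lipase. Abhd5, also called CGI-58, encodes the protein that activates the lipase Pnpla2 at the droplet surface.

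Promoters of 4 of the 5 genes, all but Dgat2, matched by symbol in RefSeq (build GRCr8), and 3 are shown as the 250 bases before the start site, with the strand given in parentheses. Plin2 and Apoc2 are shown because both were much lower after RYGB, and Abhd5 because it differed in opposite directions after the surgeries. Both strands were searched for AGGTCA, the hexamer that nuclear receptors such as the PPARs recognise, for AGGTCANAGGTCA, the direct repeat of it to which PPARs bind with RXR, and for the E-box CACGTG. The repeat contains the hexamer, so a promoter with the repeat counts for both. Capitals mark the matches.
Plin2 (chr5:106229019-106229268, minus strand): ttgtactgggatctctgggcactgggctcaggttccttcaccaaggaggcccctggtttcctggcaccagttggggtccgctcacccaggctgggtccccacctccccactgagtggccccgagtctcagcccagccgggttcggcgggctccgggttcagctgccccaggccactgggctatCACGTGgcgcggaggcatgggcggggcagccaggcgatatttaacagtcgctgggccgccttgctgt
Apoc2 (chr1:88462366-88462615, minus strand): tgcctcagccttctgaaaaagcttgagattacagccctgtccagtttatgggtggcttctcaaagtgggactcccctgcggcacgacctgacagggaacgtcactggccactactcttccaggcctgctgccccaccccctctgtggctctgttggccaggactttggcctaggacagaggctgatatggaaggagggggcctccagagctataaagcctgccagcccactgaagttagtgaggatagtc
Abhd5 (chr8:130877622-130877871, plus strand): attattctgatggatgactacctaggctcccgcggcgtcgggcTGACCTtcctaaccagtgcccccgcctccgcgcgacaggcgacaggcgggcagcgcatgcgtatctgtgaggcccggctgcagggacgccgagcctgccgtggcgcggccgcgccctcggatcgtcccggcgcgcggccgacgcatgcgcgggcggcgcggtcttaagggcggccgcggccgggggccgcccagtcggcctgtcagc
The Plin2 window held 1 E-box from base -67 to -62 before the start site, a motif present in 5.59% of the 33469 promoters of the table. The Abhd5 window held 1 such hexamer on the opposite strand, from -207 to -202, a motif present in 14.1% of promoters. None of the searched letters occurred in the Apoc2 window, in the Apoa4 promoter or in a second Plin2 promoter, and the direct repeat, present in 0.0508% of promoters, occurred in none of these windows. A match is a description of these letters and not evidence of a bound factor. The search took only exact letters within 250 bases, so a missing match does not show that a gene lacks such a site.

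Values are log2 RMA expression values from 1 array per rat, and all differences are on that log2 scale. They were fitted with limma to 5 group means over the 29 arrays, and a gene was called at a Benjamini-Hochberg adjusted p under 0.05 over all 14557 genes. The labels number the rats within a group as biological replicates. The mean of 13 enterocyte genes lay between 9.51 and 9.86 on the 29 arrays. Among them were Vil1, Epcam and Cdh17 at group means of 9.83 to 11.02 and, lowest, Cdx1 at 3.89 to 3.93. None of the 13 was called in the 6 comparisons, in which 0% to 2.64% of all genes were called. A count of 0 in 13 genes is near those shares. Transcripts of the exocrine pancreas varied widely, with a mean of 16 acinar genes from 2.89 to 8.48 in RYGB, 2.64 to 5.42 in its sham, 4.59 to 7.84 in VSG, 2.69 to 7.79 in the VSG sham and 2.55 to 8.71 in pair-fed sham. This acinar mean was also higher after both surgeries. It averaged 6.59 ± 2.13 (SD) in RYGB against 3.37 ± 1.16 in its sham. In VSG it averaged 6.65 ± 1.14, against 4.82 ± 1.99 in the VSG sham and 5.35 ± 2.67 in pair-fed sham. None of the 16 genes was called in these comparisons, against 2.64%, 0.179% and 0.508% of all genes in the same order. The mean of 8 adipocyte genes lay between 4.16 and 4.76, and its members differed: Adipoq (1.41 to 2.70) lay under the lowest array median of 2.80 on all arrays and Lep had group means of 2.01 to 2.39, whereas Fabp4 (group means 8.29 to 8.61), Cidec (7.32 to 9.22) and Cfd (4.52 to 4.89) lay above the medians. In whole tissue, fewer cells of a type and less RNA per cell cannot be told apart.

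The lipid droplet coat gene Plin2 was 2.91-fold lower after RYGB than after its sham (log2 difference -1.54 ± 0.12 SE, 95% interval of the fold 2.44 to 3.46). The RYGB arrays ran from 8.39 through a median of 8.64 to 9.05, with a mean of 8.67 ± 0.28 (SD, n = 6). The 5 RYGB sham arrays stood at 10.51, 10.11, 10.04, 10.12 and 10.27. Every RYGB array lay below every sham array, with a gap of 0.99 between the nearest. The other groups stayed near the sham level: VSG ran from 10.20 through 10.33 to 10.43, the VSG sham from 10.01 through 10.27 to 10.33, and pair-fed sham from 9.79 through 10.26 to 10.39. Their ranges overlapped each other and that of the RYGB sham, so no order among these 4 groups exceeds their spread. VSG minus its sham was 0.10 ± 0.12, an interval from -0.14 to 0.34.

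Dgat2 was lower after RYGB by a similar log2 step. The 6 RYGB arrays ran from 7.41 through 7.82 to 8.36 (mean 7.82 ± 0.33 SD), and the 5 sham arrays stood at 9.85, 9.56, 8.67, 9.25 and 9.65 (mean 9.40 ± 0.46 SD). The groups did not overlap, although sham replicate 3, at 8.67, came within 0.31 of the highest RYGB array. The difference was -1.58 ± 0.17, or 2.99-fold lower (interval 2.34 to 3.81), and it was -1.76 without that array. VSG, from 9.21 through 9.47 to 9.72, overlapped its sham, from 9.11 through 9.52 to 9.85, with a difference of -0.02 ± 0.16. Pair-fed sham had the lowest Dgat2 mean of the groups other than RYGB, 9.13 ± 0.22 (SD, n = 6), and ran from 8.91 through 9.12 to 9.39. Pair-fed replicates 2, 3 and 4 (8.95, 8.91 and 8.92) lay below all VSG sham arrays, but pair-fed sham minus VSG sham, at -0.38 ± 0.16 with an interval from -0.71 to -0.04, did not pass limma's test over all genes (adjusted p = 0.86).

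Apoc2, the lipoprotein lipase cofactor, differed most of the 5 genes. The RYGB arrays ran from 7.98 through 8.20 to 8.78 (mean 8.25 ± 0.30 SD, n = 6), and the RYGB sham arrays stood at 10.67, 10.03, 10.39, 9.90 and 10.35. The gap between the nearest arrays was 1.12, and the difference of -2.01 ± 0.20 makes Apoc2 4.04-fold lower (interval 3.04 to 5.37). Apoc2 also varied most within groups, with a pooled SD of 0.35 over the 5 groups against 0.09 for Apoa4. VSG ran from 9.72 through 10.22 to 10.74 and its sham from 9.82 through 10.15 to 10.41, a difference of 0.12 ± 0.19 with full overlap. Pair-fed sham ran from 9.27 through 10.24 to 10.67.

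The other apolipoprotein, Apoa4, differed far less on the log2 scale. The RYGB arrays ran from 11.51 through 11.64 to 11.78, and the sham arrays stood at 11.99, 11.88, 11.79, 11.81 and 12.05. The groups did not overlap, but the nearest arrays were 0.02 apart. The difference was -0.25 ± 0.07, or 1.19-fold lower (interval 1.07 to 1.33). Over all groups the row ran from 11.51 to 12.05 while no named gene on any array exceeded 12.44, so Apoa4 sat near the top of the measured scale. Whether that compresses its differences was not tested. VSG, its sham and pair-fed sham had means of 11.96 ± 0.07, 11.93 ± 0.07 and 11.93 ± 0.07 (SD, n = 6 each) and overlapped.

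**Figure D1:**
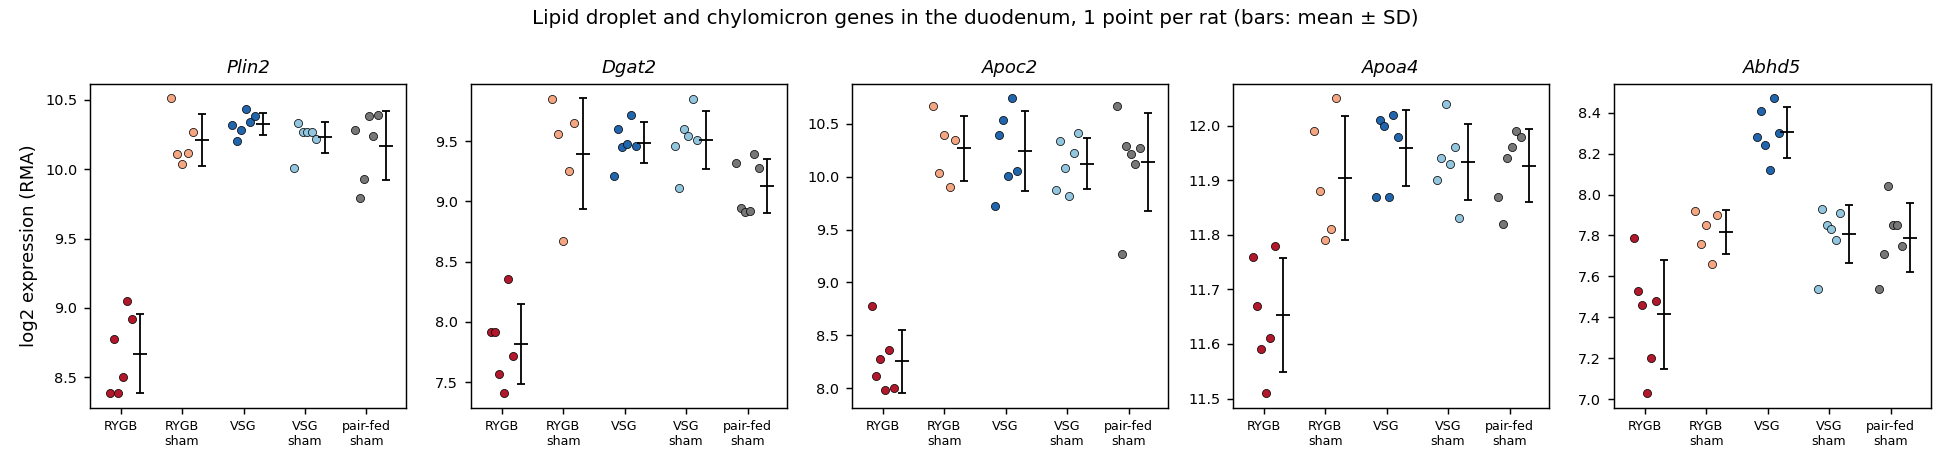
Log2 RMA expression of the 5 genes (vertical axes, a separate scale for each gene) in the 5 groups, with 1 point per rat and bars for the mean ± SD. Plin2, Dgat2 and Apoc2 in RYGB lie 0.31 or more below all RYGB sham arrays, Apoa4 by 0.02, and Abhd5 is lowest in RYGB and highest in VSG.

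Abhd5, the activator of the droplet lipase, was the member whose 95% intervals lay on opposite sides of 0 after the surgeries. The RYGB arrays ran from 7.03 through 7.47 to 7.79 (mean 7.42 ± 0.27 SD, n = 6), and the 5 sham arrays stood at 7.92, 7.76, 7.85, 7.66 and 7.90. The groups overlapped through RYGB replicate 1 at 7.79, and the other 5 RYGB arrays lay below all sham arrays. The difference was -0.40 ± 0.11, or 1.32-fold lower (interval 1.13 to 1.55). After VSG the arrays ran from 8.12 through 8.29 to 8.47, and those of its sham from 7.54 through 7.84 to 7.93. Every VSG array lay above every sham array, with a gap of 0.19, and the difference was 0.50 ± 0.11, or 1.41-fold higher (interval 1.21 to 1.64). The RYGB effect minus the VSG effect was -0.90 ± 0.15. The sham groups were level, at 7.82 ± 0.11 (n = 5) and 7.81 ± 0.14 (n = 6), with a difference of -0.01 ± 0.11 (limma adjusted p = 0.994).

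Abhd5 was chosen for this pattern, and how rare it is can only be described. Over all genes, 15 (0.103%) were called after both surgeries, and Abhd5 was the 1 gene (0.00687%) among them with opposite signs. This count includes Abhd5 through the same contrasts that chose it, so it is no support for the pattern. It also depends on the threshold. Emp1 (-0.52 ± 0.15 after RYGB, 0.60 ± 0.14 after VSG) and Crybg2 (-0.59 ± 0.17, 0.65 ± 0.16) had larger opposite differences but are not in the count. Both were picked for their high correlation with Abhd5 over all arrays, which contains the group differences, so their shared signs are no separate support. Another gene, Ppp1r15a, a stress-induced phosphatase subunit named here after its values were seen, was lower after RYGB (-0.48 ± 0.14) and higher after VSG (0.55 ± 0.13) with no overlap of arrays in either comparison, the 1 such gene (0.00687%), although neither difference was called (limma adjusted p = 0.0525 and 0.0793). Among the 5 genes, the count with no overlap between RYGB and its sham was 4, all lower, a background of 1.39% of genes in that direction. For VSG and its sham it was 1, Abhd5, against 0.501% of genes higher without overlap. Both counts rest on the contrasts that chose the genes.

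**Figure D2:**
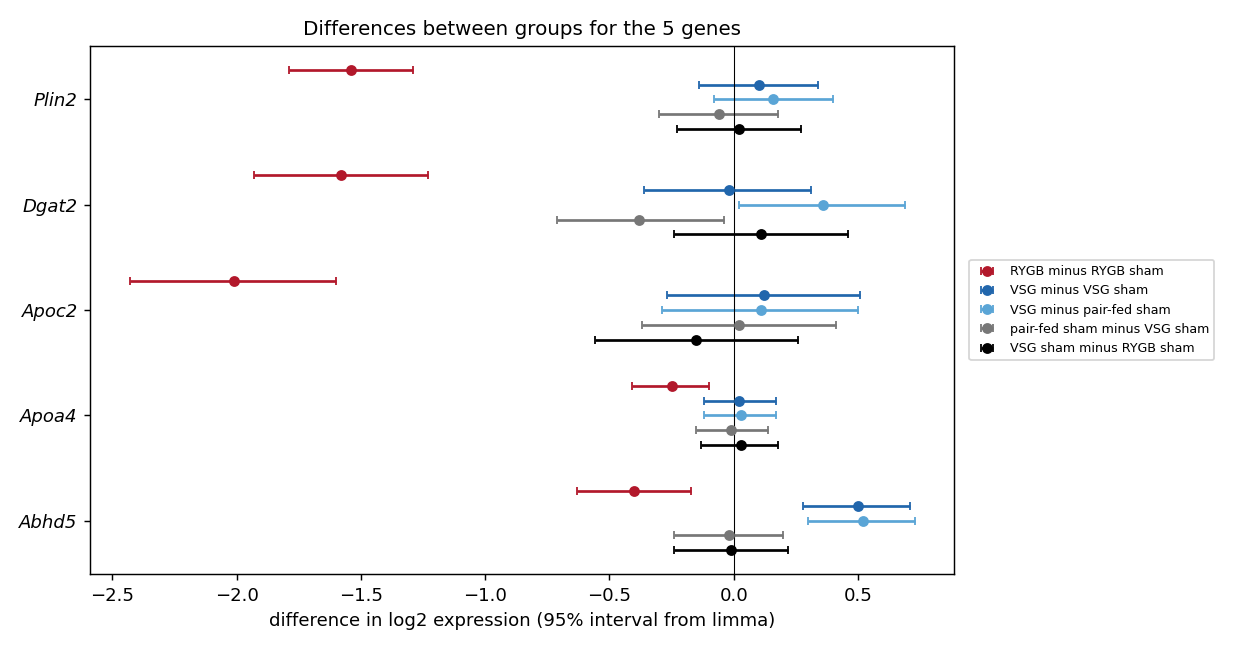
Differences in log2 expression (horizontal axis) for the 5 genes in 5 comparisons, as limma estimates with 95% intervals. RYGB minus its sham lies from -2.01 for Apoc2 to -0.25 for Apoa4, and Abhd5 is the gene with intervals on opposite sides of 0 for RYGB (-0.63 to -0.17) and VSG (0.28 to 0.71).

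VSG was next compared with the pair-fed sham, whose rats had the VSG sham operation and paired feeding. Food intake was not examined here, so how well intake was matched between these groups was not tested. The pair-fed arrays are not part of the contrasts that chose the genes, but the VSG arrays are. Abhd5 was higher after VSG by 0.52 ± 0.11, or 1.43-fold (interval 1.23 to 1.66), with the VSG arrays from 8.12 to 8.47 and the pair-fed arrays from 7.54 through 7.80 to 8.04, a gap of 0.08. Limma called it (adjusted p = 0.0193), 1 of the 5 genes against 0.508% of all genes, and 0.495% of genes were higher without overlap. Because the VSG arrays helped to choose Abhd5, this p is not independent evidence. The call was not kept with only the arrays of these groups in the fit (0.52, adjusted p = 0.0586), without VSG replicate 2 (0.49, adjusted p = 0.0512) or replicate 6 (0.52, adjusted p = 0.0543), without pair-fed replicate 1 (0.47, adjusted p = 0.0521) or without the 2 pair-fed and 2 RYGB arrays with an acinar mean above 8 (0.44, adjusted p = 0.0954). Plin2 (0.16 ± 0.12), Dgat2 (0.36 ± 0.16), Apoc2 (0.11 ± 0.19) and Apoa4 (0.03 ± 0.07) were not called, with adjusted p-values of 0.677, 0.411, 0.894 and 0.929.

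Pair feeding alone left Abhd5 at the sham level, -0.02 ± 0.11 with an interval from -0.24 to 0.20. Plin2 differed by -0.06 ± 0.12, Apoc2 by 0.02 ± 0.19 and Apoa4 by -0.01 ± 0.07. None of the 5 genes was called for pair-fed sham minus VSG sham (adjusted p from 0.86 to 0.994), and limma called 0 genes in all (0% of 14557), with 811 at an unadjusted p under 0.05. Between the shams none of the 5 was called either (adjusted p from 0.987 to 0.994, differences from -0.15 ± 0.20 for Apoc2 to 0.11 ± 0.17 for Dgat2), with 0 genes called (0%) and 757 at an unadjusted p under 0.05. VSG minus VSG sham and VSG minus pair-fed sham share the VSG arrays, and these comparisons share shams, so their values are not independent of each other.

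The members were set beside 66 other measured genes of the same pathway, from 7 lists of uptake, synthesis, chylomicron assembly, droplets, lipolysis, lipoprotein lipase and transcription factors. After RYGB 7 of the 66 fell, 1 rose and 58 did not pass, so 12.1% were called against 2.64% of all genes. Their median was -0.07 against 0.00 over all genes, and 45 of 66 lay below 0. The lists were chosen with earlier results known, so this share describes them and does not test them. Without the 2 RYGB and 2 pair-fed arrays with an acinar mean above 8, 5 fell and none rose, and the same counts came without RYGB sham replicate 1. The counts of each list after RYGB, given below, stand against the same 2.64% of all genes.

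Among genes of droplet formation Cidec, which promotes the fusion of lipid droplets, fell 3.37-fold after RYGB (-1.75 ± 0.14, adjusted p = 1.40e-09). The RYGB arrays ran from 6.96 to 7.56 and the 5 sham arrays stood at 9.47, 9.01, 8.95, 8.89 and 9.02. The other 9 measured genes of that list did not pass, among them Plin1 at 0.10 ± 0.16 and Plin5 at -0.05 ± 0.19, coat proteins of the same family as Plin2, and Fitm2, which helps droplets bud, at -0.01 ± 0.15. The list's median was -0.01. Cidec also stands in the adipocyte marker list, where it was the 1 called member. The mean of the other 7 adipocyte genes was 3.96 ± 0.23 (SD, n = 6) in RYGB and 3.84 ± 0.13 (SD, n = 5) in its sham.

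In lipolysis, Pnpla2, the triglyceride lipase that Abhd5 activates, fell 1.48-fold after RYGB (-0.56 ± 0.12, adjusted p = 0.00475). The RYGB arrays ran from 8.77 to 9.08, below the 5 sham arrays at 9.76, 9.58, 9.39, 9.46 and 9.21. After VSG, where Abhd5 was higher, Pnpla2 was at 0.08 ± 0.11 (interval -0.15 to 0.30, adjusted p = 0.896). All 7 measured genes of the list lay below 0 after RYGB, with a median of -0.26, and 6 of them did not pass. They included G0s2, an inhibitor of Pnpla2, at -0.72 ± 0.25 (adjusted p = 0.141), the monoglyceride hydrolase Abhd6 at -0.39 ± 0.12 (adjusted p = 0.0786) and the lysosomal lipase Lipa at -0.26 ± 0.16. Without RYGB replicate 5, limma called G0s2 (-0.87, adjusted p = 0.044) and Abhd6 (-0.45, adjusted p = 0.0306). After VSG G0s2 was at -0.48 ± 0.24 and Pnpla3 at 0.39 ± 0.15, neither called (adjusted p = 0.558 and 0.413).

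In triglyceride synthesis 2 of 12 measured genes (16.7%, against 2.64% of all genes) fell after RYGB and 10 did not pass. The list's median was -0.10. Mogat1, a monoacylglycerol acyltransferase, fell by 0.89 ± 0.23 on the log2 scale (adjusted p = 0.0278), but its values of 1.99 to 3.03 after RYGB and 2.89 to 3.79 in the sham lay around the array medians, so its fold is inexact. Lpin2, a phosphatidate phosphatase, fell 1.63-fold (-0.70 ± 0.18, adjusted p = 0.0247). Mogat2, the main monoacylglycerol acyltransferase of the intestine, was at 0.01 ± 0.15 and Dgat1, the other enzyme that completes triglyceride synthesis, at -0.02 ± 0.08, an interval from -0.19 to 0.15. The same arrays had Dgat2 2.99-fold lower. The call of Lpin2 ended when RYGB replicate 2 or 4, or 1 of the sham replicates 1, 4 and 5, was left out (adjusted p between 0.0618 and 0.1). That of Mogat1 ended when 1 of the RYGB replicates 1, 3 and 6, or sham replicate 1 or 3, was left out (adjusted p between 0.0529 and 0.0986). Mogat1 was also not called with the acinar, enterocyte or adipocyte mean as a covariate (adjusted p = 0.13, 0.063 and 0.0619) or without the arrays with an acinar mean above 8 (0.0507), and Lpin2 not without those arrays (0.091) or with only the compared groups fitted (0.15).

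None of the 15 measured genes of chylomicron assembly other than Apoa4 and Apoc2 was called after RYGB, against 2.64% of all genes. In a list of 15 a count of 0 is near that share, so it does not set the list apart. Of the 15, 10 lay below 0, with a median of -0.05. Apob, the structural protein of chylomicrons, was at 0.13 ± 0.10 (interval -0.08 to 0.34, adjusted p = 0.651) and Mttp, the transfer protein that loads lipid onto it, at -0.06 ± 0.09 (interval -0.25 to 0.13, adjusted p = 0.843). The GTPase Sar1b, which drives export of chylomicrons from the endoplasmic reticulum, was at -0.23 ± 0.10 (adjusted p = 0.306). Apoe and Apoc1, apolipoproteins of several lipoproteins whose genes lie in one cluster with Apoc2, were at 0.55 ± 0.16 and 0.66 ± 0.25 (adjusted p = 0.0612 and 0.172), on the other side of 0 from Apoc2. Apoe was called with the dimmest 33.3% of genes left out (adjusted p = 0.0395), with a trended and robust prior (0.0383) and without RYGB replicate 2 (0.0379) or sham replicate 4 (0.0293), and Apoc1 with the adipocyte mean as a covariate (0.025). That mean holds Cidec, which itself fell after RYGB. Apoc1, with means of 3.06 in RYGB and 2.40 in its sham, lay around the array medians, so its fold is inexact.

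In uptake, Acsl3, an acyl-CoA synthetase of the endoplasmic reticulum and of droplets, fell 2.29-fold (-1.20 ± 0.17, adjusted p = 7.83e-05), and the other 6 measured genes did not pass (median -0.07). Of these the fatty acid binding proteins Fabp1 and Fabp2 were at 0.07 ± 0.07 and 0.02 ± 0.08, and Cd36, a fatty acid receptor, at -0.21 ± 0.23. Of 6 genes around lipoprotein lipase Angptl4, an inhibitor of that lipase, fell 6.2-fold (-2.63 ± 0.21, adjusted p = 1.36e-09), while Lpl itself was at -0.05 ± 0.17 and the list's median was -0.11. Of 9 transcription factors Srebf1, which drives fatty acid synthesis, fell 1.75-fold (-0.81 ± 0.18, adjusted p = 0.00896), and Nr1h3, the sterol-sensing liver X receptor alpha, rose 1.33-fold (0.41 ± 0.11, adjusted p = 0.0426), with a median of -0.16. Ppara, the fatty acid receptor PPAR alpha, was at -0.16 ± 0.12 and did not pass. Nr1h3 lost its call with each of the 3 marker means as a covariate (adjusted p from 0.0688 to 0.108) and when any of RYGB replicates 1, 2, 3 and 6 or sham replicates 1, 3, 4 and 5 was left out (adjusted p between 0.0598 and 0.116).

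**Figure D3:**
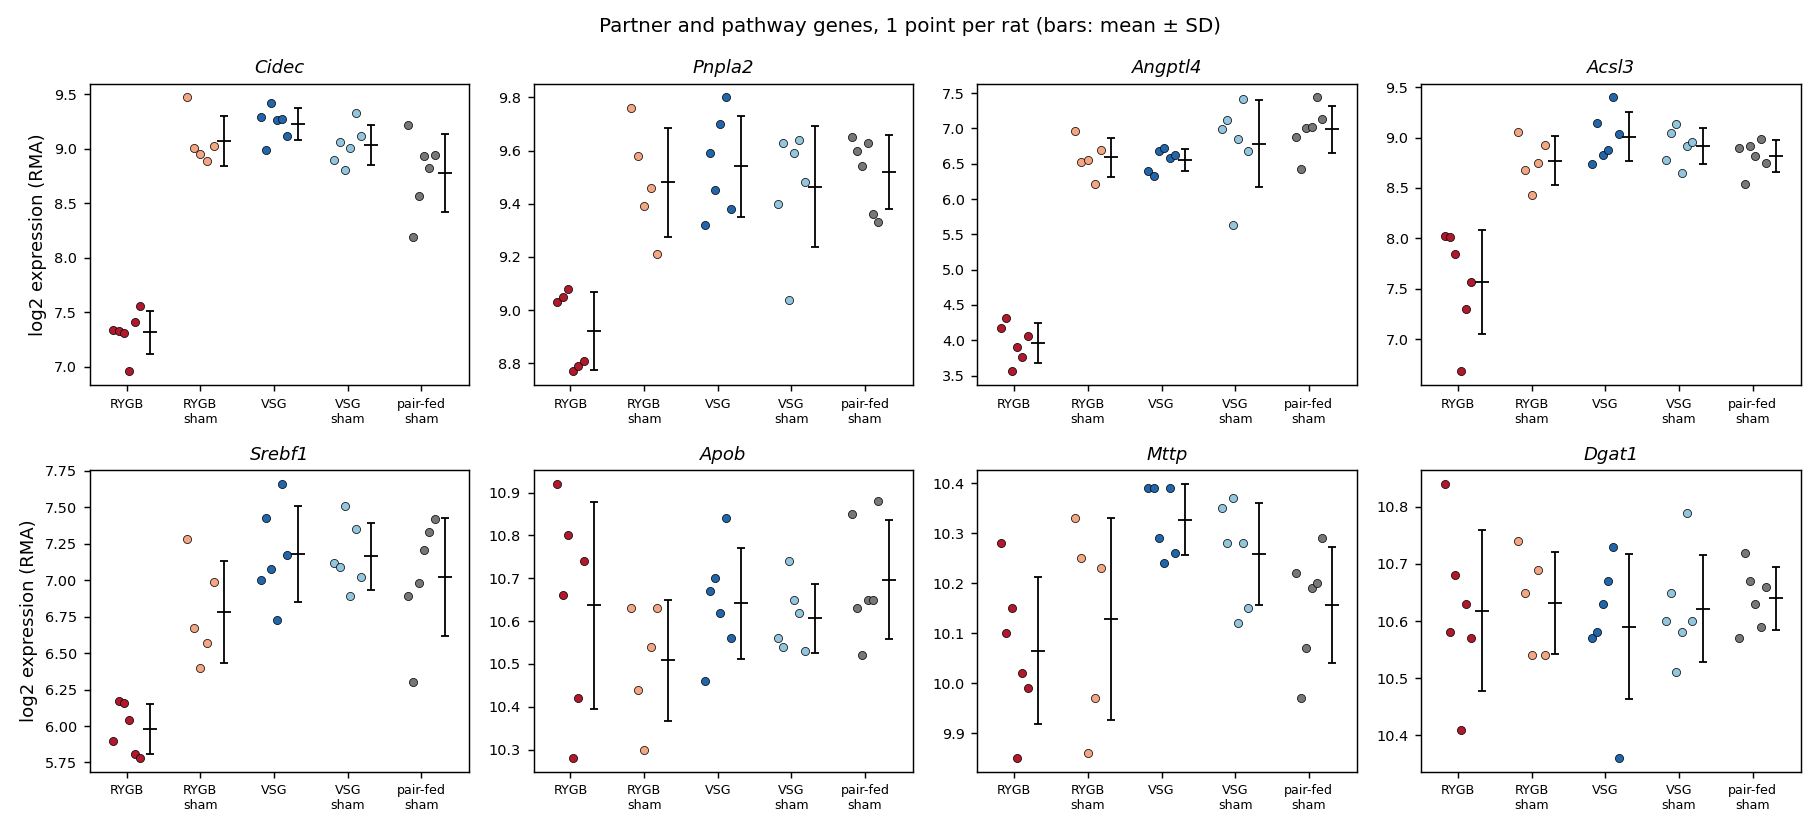
Log2 RMA expression (vertical axes, a separate scale for each gene) of 8 pathway genes in the 5 groups, with 1 point per rat and bars for the mean ± SD. Cidec, Pnpla2, Angptl4, Acsl3 and Srebf1 are lower in every RYGB array than in every RYGB sham array, whereas the ranges of Apob, Mttp and Dgat1 overlap in these groups.

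After VSG 0 of the 66 list genes were called, against 0.179% called over all genes. At an unadjusted p under 0.05 there were 5 (7.58%), against 8.99% of all genes. Apob (0.04 ± 0.10), Mttp (0.07 ± 0.09), Dgat1 (-0.03 ± 0.08) and Mogat2 (0.29 ± 0.14) had adjusted p-values from 0.539 to 0.954. List medians ran from -0.15 for lipoprotein lipase and its regulators to 0.11 for glyceride synthesis, where the median over all genes was -0.01. The difference between the surgeries' effects was called for 3 of the 66 (4.55%, against 0.392% of all genes): Cidec by -1.94 ± 0.20 (adjusted p = 1.24e-06), Angptl4 by -2.41 ± 0.29 (adjusted p = 2.11e-05) and Acsl3 by -1.29 ± 0.24 (adjusted p = 0.00648). For Pnpla2 this difference was -0.64 ± 0.16 and was not called (adjusted p = 0.0744). For the members, given as a description, it was -1.64 ± 0.17 for Plin2, -1.56 ± 0.24 for Dgat2, -2.14 ± 0.28 for Apoc2 and -0.28 ± 0.10 for Apoa4. Against pair-fed sham 0 of the 66 were called after VSG, with 8 (12.1%) at an unadjusted p under 0.05 against 11.1% of all genes. Pair feeding called 0 of the 66, with 5 (7.58%) at an unadjusted p under 0.05 against 5.57% of all genes. Between the shams 0 of the 66 were called, with 2 (3.03%) against 5.2%.

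**Figure D4:**
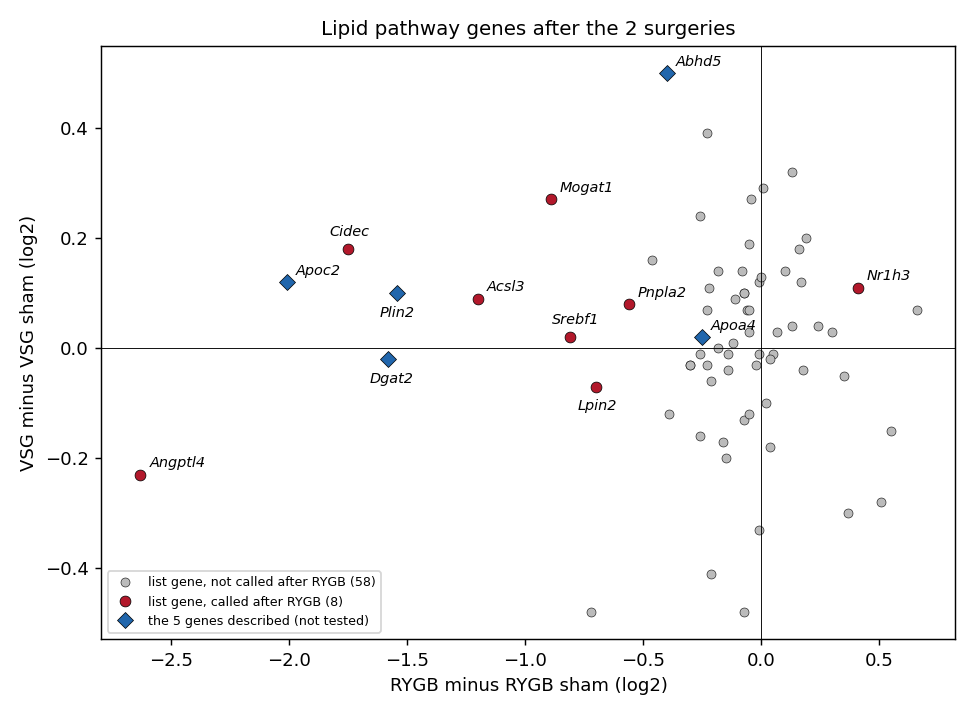
Log2 difference after RYGB (horizontal axis) and after VSG (vertical axis), each against its own sham, for 66 list genes (grey not called after RYGB, red called) and the 5 members (blue diamonds). Plin2, Dgat2, Apoc2 and Apoa4 lie between -2.01 and -0.25 on the horizontal axis and between -0.02 and 0.12 on the vertical one, and Abhd5 lies at -0.40 and 0.50.

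The 5 genes were set beside the marker means of other cells. With the acinar mean of each array as a covariate, RYGB minus its sham was -1.52 ± 0.14 for Plin2, -1.57 ± 0.20 for Dgat2, -2.04 ± 0.23 for Apoc2, -0.27 ± 0.09 for Apoa4 and -0.33 ± 0.13 for Abhd5. Abhd5 after VSG was 0.54 ± 0.11 in that fit. With the enterocyte mean as a covariate the RYGB values were -1.53, -1.66, -1.99, -0.26 and -0.41 in the same order, and with the adipocyte mean they were -1.55, -1.65, -1.95, -0.27 and -0.43. The adipocyte mean includes Cidec, which itself fell after RYGB, so that fit does not adjust for adipocytes alone. With Cidec the mean was 4.38 in RYGB and 4.49 in its sham, and without it 3.96 and 3.84. The mean without Cidec was not used as a covariate. Means of 7 macrophage genes were 5.55 ± 0.32 in RYGB and 5.61 ± 0.11 in its sham, of 6 hepatocyte genes 2.88 ± 0.39 and 2.68 ± 0.17, and of 2 smooth muscle genes 9.79 ± 0.39 and 10.07 ± 0.17 (SD, n = 6 and 5). The mean of 3 Brunner gland genes ran from 3.22 to 7.51 in RYGB and from 3.53 to 3.82 in its sham. The part of these cells in the results was not tested beyond these fits.

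Within groups the members varied together to different degrees. After each group's mean was taken off, Pearson's r over the 29 arrays, given as a description, was 0.58 for Apoa4 and Abhd5, 0.50 for Plin2 and Dgat2, 0.50 for Dgat2 and Apoa4, 0.41 for Apoc2 with both Apoa4 and Abhd5, 0.37 for Plin2 and Apoa4, 0.32 for Dgat2 and Apoc2 and 0.25 for Plin2 and Apoc2. Abhd5 was near 0 with Plin2 (-0.08) and Dgat2 (0.05). The values share arrays and their normalization.

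For each member the 4 genes with the highest r over the 29 arrays were named. RYGB lies apart from the other groups for Plin2, Dgat2, Apoc2 and, by 0.02, Apoa4, and VSG lies above the others for Abhd5. That r therefore contains differences between groups for all 5 members, and r within groups is given after it. For Plin2 they were Cidec (0.97, and 0.67 within groups), the phosphate transporter Slc20a1 (0.94 and 0.49), the small GTPase Rab30 (0.94 and 0.66) and the transcription factor Klf10 (0.93 and 0.27). For Dgat2 they were Slc20a1 (0.94 and 0.63), Plin2 (0.93 and 0.50), Cidec (0.93 and 0.44) and Suco (0.91 and 0.58). For Apoc2 they were Cidec (0.94 and 0.59), Rab30 (0.92 and 0.59), Mfsd2a, a transporter of lysophosphatidylcholine (0.92 and 0.72), and Plin2 (0.91 and 0.25). Cidec thus stood among the 4 for each of these 3 members.

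The genes most like the other members differed from these. For Apoa4 they were Acsl3 (0.89 and 0.62), Srebf1 (0.87 and 0.61), the deubiquitinase Otud7b (0.86 and 0.52) and Pcyt1a, the regulated enzyme of phosphatidylcholine synthesis (0.86 and 0.72). For Abhd5 they were Emp1, an epithelial membrane protein (0.85 and 0.46), Crybg2 (0.84 and 0.44), the lysosomal membrane protein Scarb2 (0.84 and 0.59) and Otud7b (0.80 and 0.56). Emp1 and Crybg2 also had opposite signs, at -0.52 ± 0.15 and -0.59 ± 0.17 after RYGB and 0.60 ± 0.14 and 0.65 ± 0.16 after VSG, given without a test because they were picked for their likeness to Abhd5.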

How the data were processed

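RNA from the duodenum of 29 rats was measured on Affymetrix arrays, 1 per rat. The deposited log2 values are the authors' own: per the submitters' processing notes they used RMA and Affymetrix Expression Console (1.3.0.187). Chip definition, genome build and filters: not given in the sources used here. Arrays carry no read depth, so their number limits the precision. Of 36685 rows, 14824 had 1 gene symbol, updated by Entrez number through the GRCr8 gene table. The row with the highest mean stood for a gene, which gave 14557 genes.

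One model of 5 group means was fitted with limma (version 3.58.1, R 4.3.3; lmFit, eBayes), with two-sided Benjamini-Hochberg adjusted p-values over all genes. The fit was also run on simulated data with independent noise for each gene and known shifts in RYGB. That run lacks the shared variation of real arrays, so it cannot show how reliable the calls are. Errors of differences are SE, those of group levels SD. The members, the 7 lipid lists (93 genes, 66 measured beside the members) and the 7 marker lists were chosen with earlier results of these data known. Named were the members, up to 4 called genes per list and comparison, Apob, Mttp, Dgat1, Mogat2, Pnpla2, Plin3, Apoa1 and Apoc3 in the surgery comparisons (the last 3 had no row of their own), and the 4 genes most like each member. Other genes were named from the lists after their values were seen, to show members that did not pass. A set of 12 alternatives and the omission of each array were tried. The filter, 1 of these, left out the dimmest 33.3% of genes by mean. All 5 members pass the filter on dim genes.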

Additional observations from a re-analysis of the deposited data

Results flagged for a closer look

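Abhd5 differed in opposite directions: every RYGB array lay below the mean of its sham and every VSG array above the mean of its own, and the RYGB effect minus the VSG effect was -0.90. This difference was not tested, since it chose the gene. For Cidec (-1.94), Angptl4 (-2.41) and Acsl3 (-1.29) limma's interaction contrast called a difference between the surgeries' effects (adjusted p = 1.24e-06, 2.11e-05 and 0.00648). Their lists were chosen with earlier results of these data known, so these p-values are not independent evidence.

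Single arrays stood apart from their group by Dixon's test, which picks out about 5% of groups by chance, and 120 groups were examined. The cases found, all given here, are about as many as that share gives. Plin2 was at 10.01 in VSG sham replicate 1, where the other 5 arrays lay between 10.22 and 10.33. Cidec was at 9.47 in RYGB sham replicate 1, with the others at 8.89 to 9.02, and the acinar mean was at 5.42 in the same array, with the others at 2.64 to 3.07. The enterocyte mean was at 9.53 in RYGB sham replicate 3 (others 9.68 to 9.74), which was also the sham array lowest in Dgat2. The hepatocyte mean was at 2.93 in VSG sham replicate 4 (others 2.56 to 2.67), and the Brunner gland mean at 7.51 in RYGB replicate 5 (others 3.22 to 4.57).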

How the results depend on the processing

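The direction of all 5 genes after RYGB, and that of Abhd5 after VSG, was the same in the 12 alternatives and with each array left out. Leaving out 1 array gave Plin2 -1.62 to -1.46, Dgat2 -1.76 to -1.47, Apoc2 -2.12 to -1.91, Apoa4 -0.28 to -0.22 and Abhd5 -0.48 to -0.33 after RYGB, and Abhd5 0.44 to 0.53 after VSG. Abhd5 against pair-fed sham ran from 0.47 to 0.56 then. Its call was lost with only the compared groups fitted (0.52) and without arrays with an acinar mean above 8 (0.44). Leaving out VSG replicate 2, VSG replicate 6 or pair-fed replicate 1 also ended the call (limma adjusted p = 0.0512, 0.0543 and 0.0521).

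Small differences changed sign. After VSG Dgat2 ran from -0.10 to 0.01 and Apoa4 from -0.05 to 0.04 over the 12 alternatives, and Dgat2 from -0.10 to 0.04 with 1 array left out. With further quantile normalization Apoa4 was -0.01 for VSG minus pair-fed sham, Apoc2 0.00 for pair-fed sham minus VSG sham and Abhd5 0.00 for VSG sham minus RYGB sham. With array weights Mogat2 after RYGB was -0.01, Apoc2 and Apoa4 for pair feeding -0.04 and 0.00, and Plin2 between shams 0.00. With the acinar covariate Dgat1 after RYGB was 0.01, Apob after VSG -0.02 and Abhd5 between shams 0.02. With the enterocyte covariate Mogat2 after RYGB was -0.07 and Apob after VSG -0.02, and with the adipocyte covariate Abhd5 between shams was 0.01. Without arrays with an acinar mean above 8, Dgat1 after RYGB was 0.02, and Apoc2 and Abhd5 for pair feeding were -0.15 and 0.05. Leaving out 1 array gave, after RYGB, Dgat1 -0.06 to 0.02 and Mogat2 -0.03 to 0.06. After VSG it gave Apob 0.00 to 0.07, Dgat1 -0.06 to 0.02 and Pnpla2 -0.01 to 0.12, and Apoc2 against pair-fed sham -0.07 to 0.21, negative without pair-fed replicate 2. For pair feeding it gave Plin2 -0.10 to 0.02, Apoc2 -0.09 to 0.19, Apoa4 -0.03 to 0.02 and Abhd5 -0.07 to 0.03. Between shams it gave Plin2 -0.02 to 0.09, Dgat2 -0.07 to 0.23 and Abhd5 -0.05 to 0.04.

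Counts of called genes depended more on the setting. After RYGB 385 genes became 192 with only the compared groups and 219 with the acinar covariate. After VSG 26 became 6, 8 and 10 with only the compared groups, the acinar and the enterocyte covariate, and 7 to 24 with 1 array left out (7 without VSG replicate 3). Against pair-fed sham 74 became 123 without the dimmest 33.3% of genes, 113 with a trended and robust prior, 11 with only the compared groups, 48 with the acinar covariate, 23 without arrays with an acinar mean above 8, and 17 to 70 with 1 array left out (17 without VSG replicate 6). Of the 66 list genes, the 0 called against pair-fed sham became 2 without the dimmest genes (Ppargc1a and Creb3l3), 2 with the prior, 1 with quantile normalization, and 0 to 1 with 1 array left out. The 8 called after RYGB became 5 without arrays with an acinar mean above 8, and 5 to 10 with 1 array left out, 10 without RYGB replicate 5. Lpin2 lost its call after RYGB in 2 of the 12 alternatives, Mogat1 in 4 and Nr1h3 in 7. The difference of effects for Pnpla2 was called without the dimmest genes, with the prior and with quantile normalization (limma adjusted p = 0.0476, 0.0252 and 0.0425). The cause was not tested.

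Whether equal replicate numbers mark paired rats cannot be settled from expression. Over 56 same-numbered pairs the correlation of deviations ran from -0.22 to 0.25, with a median of 0.02 against -0.00 for other-numbered pairs. Of the same-numbered pairs 6 were above 0.1, and 5 arrays correlated best with their own number. With a replicate block 314 genes were called after RYGB, 22 after VSG and 51 against pair-fed sham, Plin2 between shams was -0.01, and Nr1h3 lost its call (limma adjusted p = 0.0699). Low signal, near the array medians of 2.80 to 2.97, limits Mogat1, Plin1, Plin5 and Apoc1 among the genes named.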

Other observations

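Pair-fed sham replicate 2 was the lowest array of its group for Plin2 (9.79), Apoc2 (9.27) and Apoa4 (11.82), and also for Cidec (8.19), Angptl4 (6.43), Acsl3 (8.54), Srebf1 (6.30) and Mogat1 (1.80). It was not the lowest for Dgat2 (8.95) or Abhd5 (7.71).

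Against pair-fed sham, 2 transcription factors of the lists came close to a call after VSG: Ppargc1a, a coactivator of oxidative metabolism, at -0.62 ± 0.16 (limma adjusted p = 0.0672), and Creb3l3, a factor that drives apolipoprotein genes in liver and intestine, at 0.33 ± 0.09 (adjusted p = 0.0773). Both were called with the dimmest 33.3% of genes left out (adjusted p = 0.0445 and 0.0419) and with a trended and robust prior (adjusted p = 0.0371 and 0.0256). They were named after their values were seen.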
